A study of Rattus norvegicus with 8 samples.

Results

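The ADAM and ADAMTS genes were taken from a table of RNA counts in rat sciatic nerve as the gene names that begin with Adam and a digit, or with Adamts. They numbered 51 of the 22601 genes in the table, of which 27 were membrane ADAM genes, 19 were secreted ADAMTS enzyme genes and 5 were ADAMTS-like genes. The nerves were collected on day 15 after chronic constriction injury (CCI, in which loose ligatures around the nerve produce neuropathic pain) or after a sham operation. Both groups were rat sciatic nerve, with 4 libraries each (CCI 1 to 4 and sham 1 to 4), and the labels give no genotype, further agent or age. Whether the 4 libraries of a group came from separate animals is not stated, so the p-values rest on the scatter among libraries, which may in part be technical. The study, by its title, asks about an FGF4 and HIF-1α axis in neuronal glycolysis, and CCI is compared here with sham.

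ADAMs are metalloproteases anchored in the cell membrane, where several of them cut the outer part of growth factors, cytokines, receptors and adhesion molecules from the cell surface, a step called shedding. ADAMTS enzymes are secreted, carry thrombospondin repeats that hold them in the extracellular matrix, and cleave proteoglycans, procollagens and other matrix proteins, while the ADAMTS-like proteins have the repeats but no protease domain. In mouse peripheral nerve, ADAM10 and ADAM17 cut neuregulin-1, the axonal growth factor that sets myelin formation, and ADAM22, which has no protease activity, is the receptor of the Schwann cell protein LGI4.

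Total counts ran from 42541217 to 54559292 per library, and 3 counts, used as the detection floor, came to between 0.0518 and 0.0771 CPM (the count scaled to a common library total, with TMM factors from the trimmed mean of M-values); floors and intervals cover counting error only. Of 15763 genes tested with edgeR's quasi-likelihood test, 68.4% passed a Benjamini-Hochberg adjusted p under 0.05, 36.2% higher and 32.2% lower in CCI, and the median log2 fold change was 0.05. Summed markers of myelinating Schwann cells, which identify the tissue as nerve, ran from 91971 to 108439 CPM in sham and from 7140.1 to 10883 CPM in CCI. Macrophage markers summed to between 989 and 1543 CPM in sham and between 5241 and 6103 CPM in CCI. Skeletal muscle markers summed to 14.5, 2956, 573 and 353 CPM in CCI 1 to 4. In sham 1 to 4 they summed to 48.3, 782, 60.4 and 33.6 CPM. In bulk tissue, fewer cells of a type and less RNA per cell cannot be told apart.

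Most of the secreted enzymes and most of the tested sheddases rose after CCI, and all 5 ADAMTS-like genes fell. Across the family, 39 of 51 members were tested, of which 20 were higher, 11 were lower and 8 did not pass; at 79.5%, the share called stood beside 68.4% of all genes. The median log2 fold change of the tested members was 0.48, and 28 of the 39 had groups that did not overlap, beside 64.8% of all tested genes. Of the 39, 17 were higher without overlap, beside 34.2% of all tested genes, and 11 lower without overlap, beside 30.6%. Of the 39 tested members 20 were called with a change of at least 2-fold, beside 30.3% of all tested genes. The other 12 members were not tested because no library held more than 10 counts of any of them. They were Adam2, Adam3a, Adam5, Adam6, Adam7, Adam18, Adam24, Adam26a, Adam28, Adam30, Adam34 and Adam34l, most of them known from testis, and Adam24, Adam34 and Adam34l had no count in any library.

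**Figure D1:**
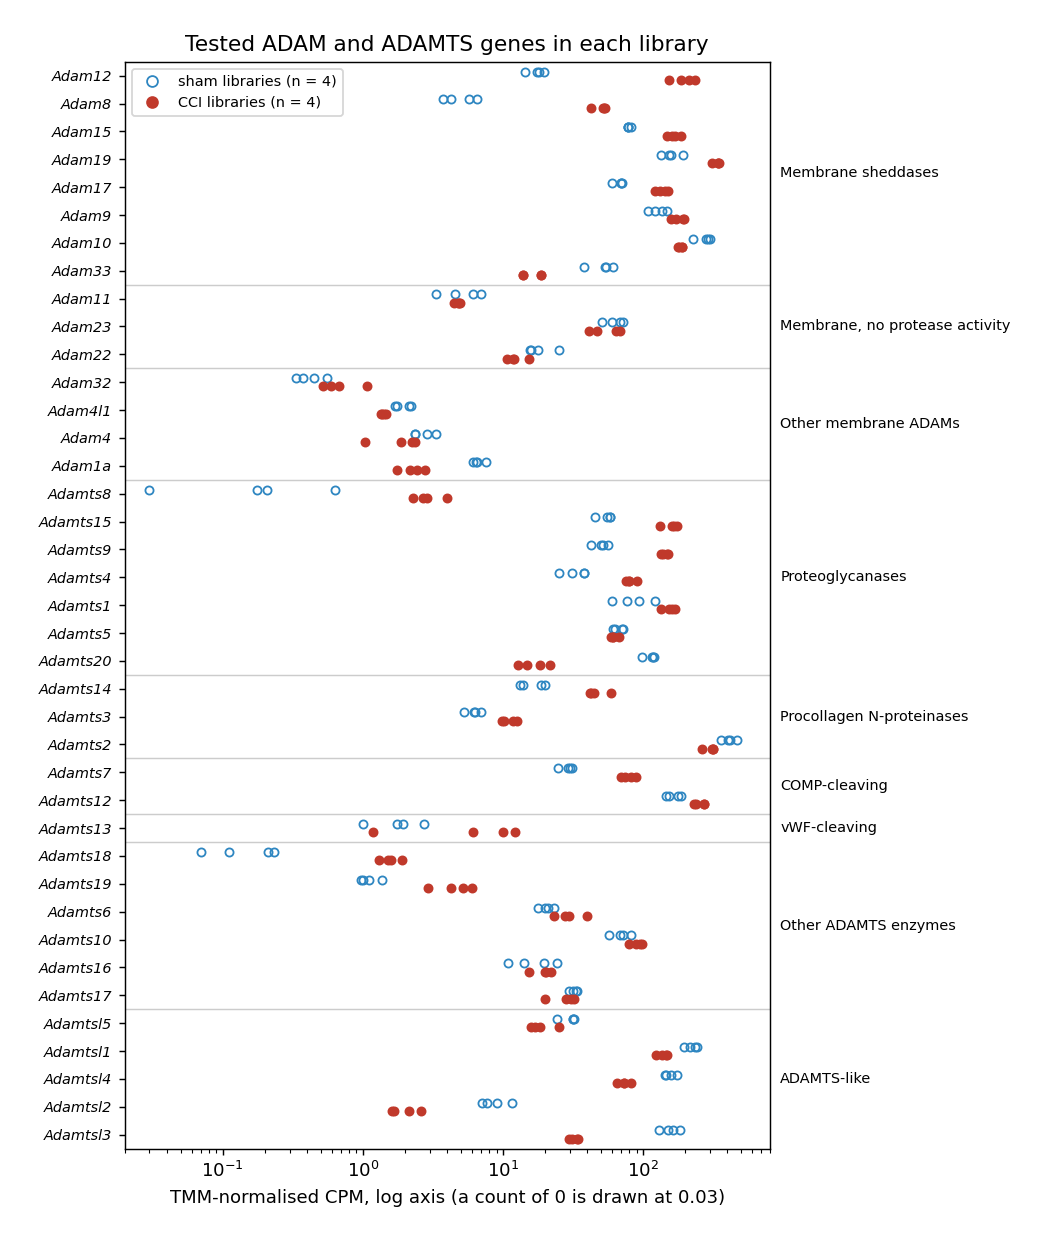
Level of each of the 39 tested ADAM and ADAMTS genes in every library, in TMM-normalised CPM on a log axis, grouped by role, with open points for sham and filled points for CCI. The CCI points of Adam12, Adam8 and Adamts9 lie clear to the right of the sham points, and those of Adamts20 and Adamtsl3 clear to the left.

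The stretches of 250 bases before the RefSeq start of 6 members are shown because these members had either the 2 largest rises or the 2 largest falls among genes with a mean of at least 5 CPM, or form the pair of main sheddases. They are reference sequence of assembly GRCr8 from RefSeq, written 5′ to 3′ on the strand of the gene. Capitals mark matches on either strand to GGGNNNNNCC, a loose form of the NF-kB motif, or to ACGTG or GCGTG, the core of the HIF motif; where matches overlap they run together.
Adam12, chr1:198443681-198443930, minus strand: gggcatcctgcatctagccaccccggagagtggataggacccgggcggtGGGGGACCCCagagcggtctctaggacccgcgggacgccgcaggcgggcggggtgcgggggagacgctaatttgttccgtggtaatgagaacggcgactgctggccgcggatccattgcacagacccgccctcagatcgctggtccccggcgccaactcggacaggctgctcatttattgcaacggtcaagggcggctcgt
Adam8, chr1:204218323-204218572, minus strand: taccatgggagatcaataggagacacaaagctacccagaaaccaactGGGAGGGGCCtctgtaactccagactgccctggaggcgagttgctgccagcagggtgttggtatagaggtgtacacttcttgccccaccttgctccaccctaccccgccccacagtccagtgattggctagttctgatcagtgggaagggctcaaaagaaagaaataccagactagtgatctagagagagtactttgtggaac
Adamts20, chr7:127407297-127407546, minus strand: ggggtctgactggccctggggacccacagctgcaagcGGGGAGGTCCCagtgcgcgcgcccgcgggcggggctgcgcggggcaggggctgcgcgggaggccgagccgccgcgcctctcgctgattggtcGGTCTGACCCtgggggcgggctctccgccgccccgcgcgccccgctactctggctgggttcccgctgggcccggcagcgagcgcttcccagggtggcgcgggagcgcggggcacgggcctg
Adamtsl3, chr1:145697754-145698003, plus strand: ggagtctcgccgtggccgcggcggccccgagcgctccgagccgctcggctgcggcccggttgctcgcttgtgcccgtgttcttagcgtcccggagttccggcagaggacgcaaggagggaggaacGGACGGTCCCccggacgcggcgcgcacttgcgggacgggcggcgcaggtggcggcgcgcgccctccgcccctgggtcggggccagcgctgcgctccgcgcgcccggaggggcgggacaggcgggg
Adam10, chr8:80226612-80226861, plus strand: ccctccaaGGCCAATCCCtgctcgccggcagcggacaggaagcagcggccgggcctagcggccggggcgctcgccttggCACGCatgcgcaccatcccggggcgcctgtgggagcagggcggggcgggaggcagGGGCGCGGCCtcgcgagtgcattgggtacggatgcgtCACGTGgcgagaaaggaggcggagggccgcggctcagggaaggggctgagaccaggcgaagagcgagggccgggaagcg
Adam17, chr6:46649345-46649594, minus strand: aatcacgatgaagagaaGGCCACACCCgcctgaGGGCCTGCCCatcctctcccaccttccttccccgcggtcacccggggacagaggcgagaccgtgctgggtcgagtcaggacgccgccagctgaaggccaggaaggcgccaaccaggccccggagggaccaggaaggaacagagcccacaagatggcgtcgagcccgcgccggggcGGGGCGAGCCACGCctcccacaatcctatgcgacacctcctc

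The windows of Adam12 and Adam8 each held 1 match to GGGNNNNNCC and none to the HIF core, as did that of Adamtsl3, which fell. That of Adamts20 held 3 matches to GGGNNNNNCC, of which the pair that starts 213 and 212 bases before the start site overlap. The window of Adam10 held 3 matches to the HIF core, of which 2 are the same palindrome read on both strands, beside 2 to GGGNNNNNCC, and that of Adam17 held 1 and 3. The AP-1 motif TGANTCA, searched in the same way, had no match in these 6 windows. Of 27457 RefSeq windows of this length, 43.5% held GGGNNNNNCC, 37.9% the HIF core and 6.36% TGANTCA. A window was given for 33 of the 51 members, 29 of them tested. Among the 16 that rose, 14 held GGGNNNNNCC, 9 the HIF core and 1 TGANTCA, and among the 10 that fell the numbers were 5, 5 and 0. The median GC content was 66.0% in the windows of members that rose, 72.2% in those of members that fell and 52.0% over all windows, and GGGNNNNNCC is itself rich in G and C. These matches describe the letters and are not binding sites.

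The membrane sheddases moved in opposite directions: of 9 listed 8 were tested, and Adam8, Adam9, Adam12, Adam15, Adam17 and Adam19 rose and Adam10 and Adam33 fell. The median log2 fold change of the 8 was 1.05, and none had groups that overlapped, beside 68.4% of all genes called and 64.8% without overlap. The largest rise among them was that of Adam12, which cuts HB-EGF and other growth factors and whose upstream window heads the sequences above. It stood at 19.5, 17.4, 14.3 and 18.0 CPM in sham 1 to 4 and at 213, 236, 154 and 186 CPM in CCI 1 to 4. Every CCI library was thus far above every sham library, with means of 197 ± 35.4 and 17.3 ± 2.16 CPM (SD, n = 4 each) and an 11.4-fold rise (log2 3.51, SE 0.15, edgeR adjusted p = 3.16e-08).

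Adam8, a sheddase best known from leukocytes, rose 9.85-fold. Its values were 4.29, 3.74, 5.69 and 6.53 CPM in the sham libraries and 51.4, 53.4, 42.8 and 52.3 CPM in the CCI libraries. The CCI values lay close together and well above sham (edgeR log2 fold change 3.30, SE 0.17, adjusted p = 9.12e-08). Markers of leukocytes moved with it: 11 of 12 macrophage markers and 7 of 9 neutrophil markers rose, the latter from sums of between 2.68 and 6.62 CPM in sham to between 86.8 and 224 CPM in CCI, and of 9 tested lymphocyte markers 6 rose. No gene of the macrophage or neutrophil lists was at 0 in every library. The part of these cells in the rise of Adam8 was not tested.

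Adam17, the enzyme that releases tumour necrosis factor and ligands of the EGF receptor, rose 2.04-fold while Adam10, the sheddase of Notch receptors and N-cadherin, fell 1.5-fold. Adam17 stood at 69.1, 59.6, 69.6 and 71.1 CPM in sham and at 144, 133, 151 and 122 CPM in CCI (edgeR log2 fold change 1.03, SE 0.08, adjusted p = 1.21e-06). Adam10 stood at 302, 229, 292 and 280.3 CPM in sham and at 191, 179.6, 189 and 178 CPM in CCI (edgeR log2 fold change -0.58, SE 0.09, adjusted p = 0.000128). Neither gene's groups overlapped, and sham 2 was the lowest sham library for both. Within a library the log2 ratio of Adam17 to Adam10 counts, which apart from an added 0.5 does not depend on how libraries are scaled, was -2.03 ± 0.08 in sham and -0.43 ± 0.09 in CCI. The difference of 1.60 was past the threshold in an exact two-sided permutation test over libraries (p = 0.0286, the smallest the 70 splits allow, and 0.0357 adjusted over 5 ratios). Since the 2 genes moved in opposite directions without overlap, the ratio had to separate the groups. Its p is therefore no support beyond the 2 results above.

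Adam15 and Adam19 each rose 2.11-fold. Adam15, a disintegrin found on endothelial and other cells, read 77.7, 82.4, 78.3 and 77.7 CPM in sham and 188, 169.8, 147 and 161 CPM in CCI (edgeR adjusted p = 4.63e-07). Adam19, which can process neuregulin-1 in mouse, read 158, 134, 154 and 192 CPM in sham and 343, 348, 345 and 309 CPM in CCI (edgeR adjusted p = 4.28e-06). In both genes the lowest CCI library was far above the highest sham library. The log2 ratio of Adam12 to Adam19 moved from -3.20 ± 0.25 in sham to -0.79 ± 0.26 in CCI, a difference of 2.41 (exact two-sided permutation p = 0.0286, adjusted 0.0357). The values given for the 2 genes already set this ratio apart between the groups, so its p is no further support. Adam9, a widely expressed sheddase, rose least of the 6, from 129 ± 17.4 to 179 ± 17.2 CPM (log2 fold change 0.48, edgeR adjusted p = 0.00181), and its lowest CCI library, at 159 CPM, was just above its highest sham library, at 147 CPM.

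Adam33, a sheddase of mesenchymal cells in human airway, fell 3.16-fold. It read 54.6, 60.6, 37.6 and 53.3 CPM in sham and 14.0, 14.0, 18.7 and 18.7 CPM in CCI, so that its groups were well apart (edgeR log2 fold change -1.66, SE 0.16, adjusted p = 9.47e-06). Fibroblast markers summed to overlapping values, between 27708 and 38546 CPM in sham and between 24634 and 34890.3 CPM in CCI, with 5 of 10 higher and 1 lower. Perineurial markers, in sham mostly Itgb4 by CPM, summed to between 4695 and 6218 CPM in sham and between 883 and 1176 CPM in CCI. Their part in the fall of Adam33 was not tested.

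Of the 3 ADAMs grouped here as without protease activity, Adam22 fell and Adam23 and Adam11 did not pass. This group need not hold every such ADAM. Adam22, the LGI receptor, read 15.9, 25.3, 17.7 and 15.5 CPM in sham and 10.7, 11.7, 11.9 and 15.3 CPM in CCI. The highest CCI library came close to the lowest sham library without reaching it (edgeR log2 fold change -0.59, SE 0.17, adjusted p = 0.0113). With CCI 2 and sham 2 left out, which held the most muscle RNA, the adjusted p was 0.0542, and with scaling by library totals alone it was 0.0932 at a log2 fold change of -0.36. Adam23, another LGI receptor and the highest of the 3 in FPKM, had overlapping groups, sham at 63.0 ± 9.47 CPM and CCI at 55.2 ± 13.1 CPM (edgeR log2 fold change -0.19, SE 0.17, adjusted p = 0.347), and its sign turned with scaling by totals. Adam11, which is found mainly in neurons, gave -0.14 (SE 0.21, edgeR adjusted p = 0.584), and its sign turned likewise. The log2 ratio of Adam22 to Adam23 was -1.78 ± 0.52 in sham and -2.14 ± 0.26 in CCI, with no difference past the threshold (exact two-sided permutation p = 0.343, adjusted 0.343).

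All 4 genes of their LGI ligands passed, 2 in each direction, with a median log2 fold change of -0.34, beside 68.4% of all genes called. Lgi4, the Schwann cell ligand of ADAM22, fell from 315 ± 20.7 to 63.7 ± 16.1 CPM (log2 fold change -2.31, edgeR adjusted p = 1.07e-06), and Lgi1, which binds ADAM22 and ADAM23 at synapses, fell from 18.1 ± 1.33 to 2.47 ± 0.814 CPM (-2.87, 1.08e-06). Lgi2 and Lgi3 rose from low levels, to 2.04 ± 0.558 and 4.75 ± 1.76 CPM, with edgeR adjusted p of 0.000246 and 0.0017. Beside them, all 11 markers of myelinating Schwann cells fell. Of the 4 Schwann lineage markers, in sham mostly S100b by CPM, 3 fell and Erbb3 did not pass. These 4 summed to between 3247 and 3971 CPM in sham and between 704 and 1154 CPM in CCI. The part of Schwann cells in the falls of Lgi4 and Lgi1 was not tested.

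Among the 15 remaining membrane ADAMs only 4 were tested, and Adam1a, whose protein helps assemble a sperm surface complex in mouse, was called. It read 6.58, 7.51, 6.41 and 6.11 CPM in sham and 2.45, 2.16, 2.79 and 1.76 CPM in CCI, a 2.9-fold fall with groups apart (edgeR adjusted p = 1.85e-05). Adam4, Adam4l1 and Adam32 were at or under 3.35 CPM in every library and did not pass, with edgeR adjusted p of 0.108, 0.0766 and 0.103. Adam4 and Adam4l1 are named as close relatives and both overlap Cox16 in the reference annotation, so reads may have been shared among them.

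**Figure D2:**
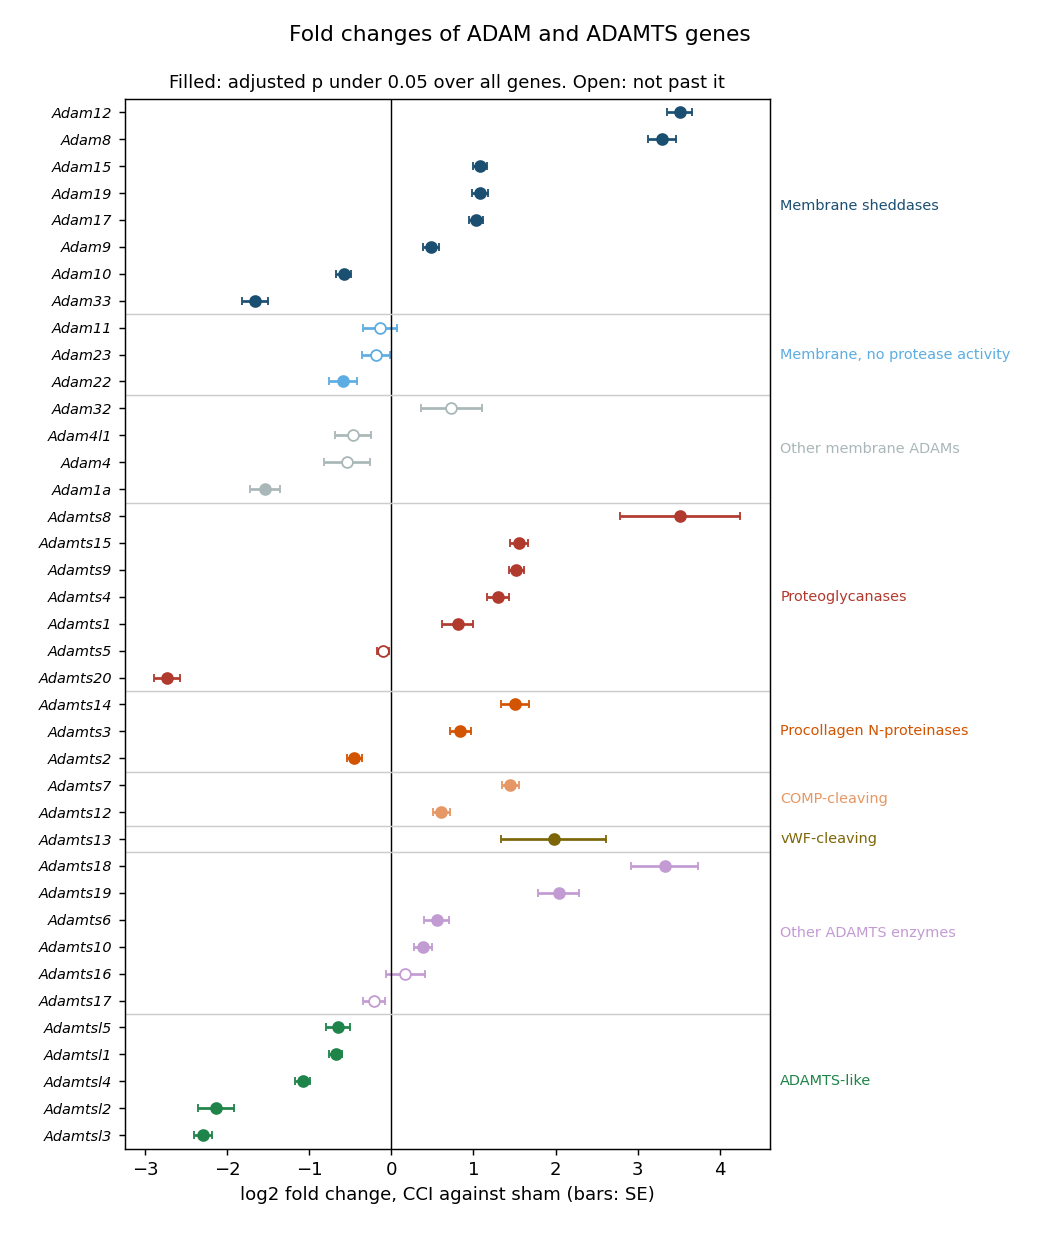
Log2 fold change (CCI against sham, bars for SE) of the 39 tested members by role; filled points passed an adjusted p under 0.05 over all tested genes and open points did not. The sheddases and secreted enzymes lie mostly right of 0, and the 5 ADAMTS-like genes lie left of it, between -0.65 and -2.29.

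All 19 secreted enzymes were tested, of which 14 rose, 2 fell and 3 did not pass; 73.7% were thus higher, beside 36.2% of all genes. Their median log2 fold change was 0.84. In the same fit 6 of the 15 tested membrane ADAMs rose, 4 fell and 5 did not pass, with a median of -0.14. That pool includes the 3 ADAMs grouped as without protease activity and the rare ADAMs. The 8 tested sheddases alone had 75.0% higher and a median of 1.05, so they did not lag the secreted enzymes. The difference between the classes was not tested, since members of a class are not replicates.

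The 7 proteoglycanases, which cleave versican, aggrecan and their relatives, moved in both directions: 5 rose, Adamts20 fell and Adamts5 did not pass. Thus 71.4% were higher and 14.3% lower, beside 36.2% and 32.2% of all genes, and the median log2 fold change was 1.30. Adamts9, a versican-cleaving enzyme, read 49.7, 42.4, 51.6 and 56.0 CPM in sham and 149, 151, 138 and 135 CPM in CCI, and rose 2.87-fold (edgeR adjusted p = 9.32e-08). Adamts15, another proteoglycanase, read 58.4, 58.5, 55.0 and 45.5 CPM in sham and 165, 176, 133 and 162 CPM in CCI, and rose 2.92-fold (edgeR adjusted p = 3.53e-07). In both, each CCI library was more than 2-fold above each sham library.

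Adamts20, the closest relative of Adamts9 and known in mouse for its role in pigment cell survival, went the other way. It read 119, 98.6, 116 and 117 CPM in sham and 14.9, 18.5, 21.7 and 12.9 CPM in CCI, a 6.63-fold fall with groups far apart (edgeR log2 fold change -2.73, SE 0.16, adjusted p = 2.5e-07). No other tested member fell by more.

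Adamts4 and Adamts5, the main aggrecanases of cartilage, differed from each other. Adamts4 read 37.7, 25.1, 31.0 and 37.6 CPM in sham and 79.2, 75.3, 89.8 and 79.5 CPM in CCI, and rose 2.46-fold without overlap (edgeR log2 fold change 1.30, SE 0.13, adjusted p = 6.45e-06). Adamts5 read 62.9, 70.9, 72.2 and 61.2 CPM in sham and 58.8, 60.8, 61.5 and 67.8 CPM in CCI, with groups that overlapped (edgeR log2 fold change -0.10, SE 0.07, adjusted p = 0.244; 0.12 with scaling by totals). The log2 ratio of Adamts4 to Adamts5 counts went from -1.04 ± 0.39 in sham to 0.38 ± 0.14 in CCI (difference 1.42, exact two-sided permutation p = 0.0286, adjusted 0.0357). The values of the 2 genes given above already set this ratio apart between the groups, so its p is no further support. Adamts4 had the higher count in each CCI library and the lower in each sham library, with gene length left aside. Per length, Adamts4 and Adamts5 overlapped in CCI, at 26.2 ± 2.37 and 24.2 ± 1.72 FPKM. In sham they stood at 9.09 ± 1.64 and 22.2 ± 1.86 FPKM.

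Adamts1, also a versican-cleaving enzyme, rose from 88.0 ± 26.4 to 155 ± 14.9 CPM (edgeR log2 fold change 0.81, SE 0.19, adjusted p = 0.00493). Its sham libraries were spread between 60.4 and 122 CPM, and its lowest CCI library read 134 CPM. Adamts8 was rare, at 0.206, 0.636, 0 and 0.176 CPM in sham and 2.88, 2.69, 3.97 and 2.27 CPM in CCI. The groups were apart, but the size of its rise was unsure: the log2 fold change was 3.52 (SE 0.73, edgeR adjusted p = 0.00185), and 4.52 without sham 2.

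A list of matrix substrates of the ADAMTS enzymes as a whole also held fibrillar collagens, fibrillins, Comp and Vwf. Of its 17 tested genes 9 rose, 4 fell and 4 did not pass (76.5% called, beside 68.4% of all genes). Their median log2 fold change was 0.69 beside 0.05 over all genes. Vcan, which encodes versican, rose from 121 ± 26.4 to 908 ± 192 CPM (log2 fold change 2.91, edgeR adjusted p = 1.69e-06). The 4 of the list with the smallest p were Dcn, Fn1, Bgn and Col2a1. Dcn (decorin) fell from 5748 ± 557 to 1809 ± 150.3 CPM and Col2a1 (a type II collagen chain) from 224 ± 32.4 to 17.3 ± 4.76 CPM. Fn1 (fibronectin) rose from 2795 ± 361 to 8955 ± 578 CPM and Bgn (biglycan) from 576 ± 47.9 to 1518 ± 141 CPM, and edgeR adjusted p of the 4 lay between 1.38e-07 and 3.16e-07.

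The 3 procollagen N-proteinases, which trim the ends of fibrillar procollagens, split as well: Adamts14 and Adamts3 rose and Adamts2, the highest of the 3 in FPKM, fell. Adamts14 read 20.1, 13.3, 13.8 and 18.8 CPM in sham and 42.2, 59.4, 41.5 and 45.0 CPM in CCI, a 2.85-fold rise (edgeR adjusted p = 2.36e-05). Adamts3 read 6.22, 6.99, 5.25 and 6.35 CPM in sham and 9.87, 12.5, 10.2 and 11.7 CPM in CCI, a 1.79-fold rise (edgeR adjusted p = 0.000175). Adamts2 read 403, 414, 359 and 465 CPM in sham and 308, 265, 316 and 316 CPM in CCI. Its groups were apart by a small gap (edgeR log2 fold change -0.45, SE 0.09, adjusted p = 0.00129), and with scaling by totals the log2 fold change was -0.22 and the call was lost (adjusted p = 0.0627). The log2 ratio of Adamts14 to Adamts2 rose from -4.65 ± 0.26 to -2.69 ± 0.36, a difference of 1.96 (exact two-sided permutation p = 0.0286, adjusted 0.0357). This p also follows from opposite moves without overlap and is no further support. Among the fibrillar collagen genes they act on, Col1a1, Col1a2 and Col3a1 did not pass (edgeR adjusted p 0.937, 0.306 and 0.173), Col5a1 rose from 1182 ± 224 to 2155 ± 339 CPM (edgeR adjusted p = 0.000575), and Col2a1 fell as given above.

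**Figure D3:**
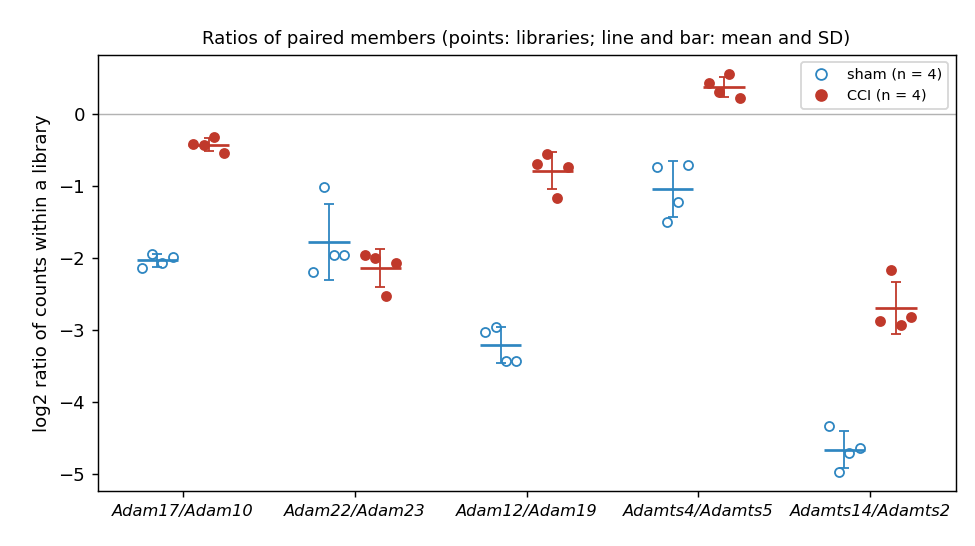
Log2 ratio of the counts of 2 members within each library, for 5 pairs; points are libraries, lines and bars the mean and SD. The CCI libraries lie above all sham libraries for Adam17/Adam10, Adam12/Adam19, Adamts4/Adamts5 and Adamts14/Adamts2, and overlap them for Adam22/Adam23.

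Adamts7 and Adamts12, which cleave the cartilage oligomeric matrix protein COMP, both rose. Adamts7 read 29.9, 24.7, 29.2 and 31.3 CPM in sham and 88.5, 81.6, 69.9 and 74.6 CPM in CCI, a 2.73-fold rise (edgeR adjusted p = 2.85e-07). Adamts12 read 188, 145, 177 and 152 CPM in sham and 239.9, 270.4, 232 and 271 CPM in CCI, a 1.53-fold rise (edgeR adjusted p = 0.000188). Neither gene's groups overlapped. Comp itself was low, 4.69 ± 0.356 CPM in the sham and 3.09 ± 1.02 CPM in the CCI libraries (edgeR adjusted p = 0.0396).

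Adamts13, the protease of von Willebrand factor, rose unevenly. It read 1.95, 1.01, 2.72 and 1.74 CPM in sham and 9.94, 1.18, 6.14 and 12.1 CPM in CCI, so that CCI 2 lay within the sham range while the other CCI libraries lay above it. Its log2 fold change was 1.98 (SE 0.64, edgeR adjusted p = 0.0227). The call was lost on leaving out CCI 1, CCI 4, sham 1, sham 2 or sham 4, with adjusted p between 0.0538 and 0.0634, and was firmest without CCI 2 (2.32, adjusted p = 0.000166). It overlaps Cacfd1 in the reference annotation, which rose as well (log2 fold change 0.98, SE 0.10), and the part of shared reads was not tested. Vwf, the gene of its substrate, rose from 189 ± 18.3 to 305 ± 30.9 CPM (edgeR adjusted p = 5.96e-05). Endothelial markers, Vwf itself among them, summed to between 852 and 924 CPM in sham and between 1333 and 1477 CPM in CCI. Of these 9 markers 7 were higher and 1 was lower.

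Of the other 6 ADAMTS enzymes 4 rose and Adamts16 and Adamts17 did not pass (edgeR adjusted p 0.538 and 0.171). The share called, 66.7%, was near the 68.4% of all genes. Adamts19, whose substrate is not established, read 1.00, 1.11, 0.976 and 1.37 CPM in sham and 4.25, 5.18, 2.94 and 5.98 CPM in CCI, a 4.11-fold rise with groups apart (edgeR adjusted p = 3.61e-05). Adamts18 rose from 26 counts over the sham libraries to 321 over the CCI libraries, or from 0.156 ± 0.0781 to 1.58 ± 0.247 CPM (edgeR adjusted p = 3.31e-05). Adamts6 and Adamts10, both linked to fibrillin microfibrils, rose less and with groups that overlapped. Adamts6 read 20.1, 21.1, 17.8 and 23.3 CPM in sham and 23.2, 39.8, 27.7 and 29.8 CPM in CCI (log2 fold change 0.55, edgeR adjusted p = 0.00932). Adamts10 read 72.3, 67.9, 57.2 and 82.5 CPM in sham and 79.3, 95.8, 89.1 and 98.8 CPM in CCI (0.38, 0.011), and without CCI 2 and sham 2 its log2 fold change was 0.34 and its adjusted p 0.0634. Fbn1, the main fibrillin gene, rose from 876 ± 91.8 to 1878 ± 188 CPM (edgeR adjusted p = 3.63e-06).

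The 5 ADAMTS-like genes all fell, beside 32.2% of all genes, with a median log2 fold change of -1.08; 4 of them had groups that did not overlap, with every CCI library below every sham library. Adamtsl3, a matrix protein associated with human height, fell most. It read 151, 184, 130.4 and 163 CPM in sham and 34.0, 29.5, 34.3 and 30.9 CPM in CCI, a 4.89-fold fall with groups far apart (edgeR log2 fold change -2.29, SE 0.11, adjusted p = 2.54e-08). Adamtsl2, which binds fibrillin and is mutated in human geleophysic dysplasia, read 11.6, 7.09, 7.67 and 9.13 CPM in sham and 2.14, 2.62, 1.66 and 1.62 CPM in CCI, a 4.4-fold fall (edgeR adjusted p = 7.36e-06). Adamtsl4, which binds fibrillin-1 and holds the lens in place in human, read 143, 175, 157 and 146 CPM in sham and 64.8, 73.6, 73.1 and 82.2 CPM in CCI, a 2.11-fold fall (edgeR adjusted p = 1.44e-06). In both the CCI values were close together and far below sham. Adamtsl1, a matrix protein also called punctin, fell 1.61-fold to 138 ± 11.3 CPM without overlap (edgeR adjusted p = 3.16e-05). Adamtsl5, which also binds fibrillin, fell 1.57-fold to 19.0 ± 4.15 CPM, with CCI 3, at 25.0 CPM, inside the sham range (edgeR adjusted p = 0.00287). The perineurial and Schwann lineage sums given above were lower in CCI beside these genes, while markers of repair Schwann cells summed to between 281 and 315 CPM in sham and between 532 and 958 CPM in CCI, with 6 of 10 higher and 2 lower. The fibroblast sums overlapped and were made up mostly of Col1a1. The part of these cells was not tested.

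Levels of different genes were compared per length, as deposited FPKM, a fragment count scaled to gene length and library total. In sham, Adam10 at 61.8 ± 6.65 FPKM and Adamts2 at 57.8 ± 6.67 FPKM stood highest and overlapped each other, followed by Adam9 at 38.4 ± 5.28 and Adamtsl4 at 29.4 ± 2.96. In CCI the order was Adam9 at 62.6 ± 5.41, Adam19 at 57.8 ± 3.11, Adam15 at 54.0 ± 4.63, Adamts2 at 49.7 ± 4.37 and Adam10 at 48.4 ± 1.81 FPKM, each overlapping the next, and then Adamts1 at 38.2 ± 3.34, which did not overlap Adam10. Within the summed FPKM of the membrane ADAMs, Adam10 went from 31.9 ± 2.73% in sham to 15.8 ± 0.585% in CCI. Adam12 went from 0.733 ± 0.0991% to 6.14 ± 1.00% and Adam17 from 7.84 ± 0.322% to 11.8 ± 1.12%. Within the secreted enzymes, Adamts2 went from 31.6 ± 2.33% to 18.2 ± 1.70%, Adamts15 from 4.55 ± 0.604% to 10.3 ± 1.00% and Adamts20 from 7.18 ± 0.65% to 0.849 ± 0.208%. No group overlapped in these shares.

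**Figure D4:**
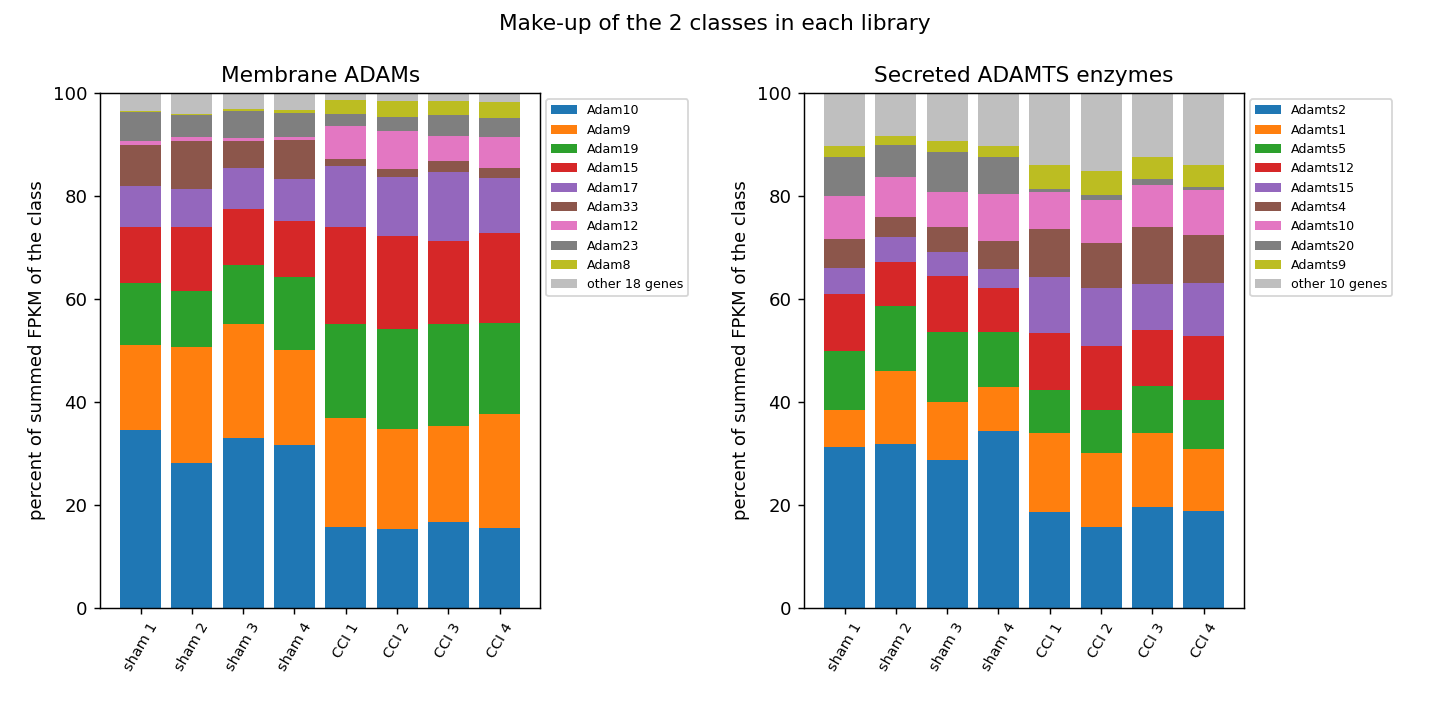
Share of each gene in the summed FPKM of the membrane ADAMs (left) and of the secreted ADAMTS enzymes (right), in percent, for every library. Adam10 takes 31.9% of the membrane sum in sham and 15.8% in CCI on average, and Adamts2 takes 31.6% and 18.2% of the secreted sum.

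The genes that mature, carry or inhibit these proteases changed in both directions. Of 13 maturation partners 6 rose, 4 fell and 3 did not pass, with a median log2 fold change of 0.17; 46.2% were thus higher and 30.8% lower, beside 36.2% and 32.2% of all genes. Furin, the convertase that removes the inhibitory propeptide of many ADAM and ADAMTS enzymes, rose from 105 ± 5.06 to 261 ± 9.73 CPM (edgeR log2 fold change 1.31, SE 0.06, adjusted p = 2.42e-08), while Pcsk6, a related convertase, fell from 81.3 ± 9.45 to 23.2 ± 1.29 CPM (-1.81, SE 0.09, 4.04e-08). Among the tetraspanins that escort ADAM10, Tspan15 fell from 53.4 ± 8.29 to 20.7 ± 0.852 CPM (log2 fold change -1.37, edgeR adjusted p = 9.23e-07), and Tspan5 and Tspan17 fell by 0.87 and 1.88 on the log2 scale, whereas Tspan14 rose by 0.20. Tspan10 had 1 count over the sham libraries and 196 over the CCI libraries, a ratio of 162 with a 95% counting interval from 28.8 to 6438. Of the iRhoms that carry ADAM17 to the surface, Rhbdf2 rose from 27.1 ± 3.78 to 48.4 ± 7.06 CPM (log2 fold change 0.84, edgeR adjusted p = 0.000118) and Rhbdf1 stood at 81.1 ± 6.42 and 76.8 ± 6.11 CPM (adjusted p = 0.38).

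All 6 inhibitor genes passed, 2 higher and 4 lower, with a median log2 fold change of -0.86. Beside them, 68.4% of all genes were called, 36.2% higher and 32.2% lower. Timp3, the TIMP with the broadest action on ADAM17 and the aggrecanases, read 1082, 1395, 1343 and 1113 CPM in sham and 351, 395, 551 and 428 CPM in CCI (edgeR log2 fold change -1.52, SE 0.14, adjusted p = 5.81e-06). Reck, a membrane inhibitor of ADAM10 in mouse, fell from 308 ± 60.2 to 77.3 ± 6.86 CPM (-2.0, SE 0.14, 5.9e-07). Timp4 fell from 54.5 ± 14.3 to 21.3 ± 1.82 CPM and Timp2 from 794 ± 35.0 to 617 ± 17.3 CPM, both without overlap. Timp1, which rose from 53.1 ± 3.58 to 181 ± 21.3 CPM (1.77, SE 0.09, 4.71e-08), acts mainly on matrix metalloproteinases and on ADAM10, and A2m, a broad protease trap, rose with overlapping groups (adjusted p = 0.0392).

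**Figure D5:**
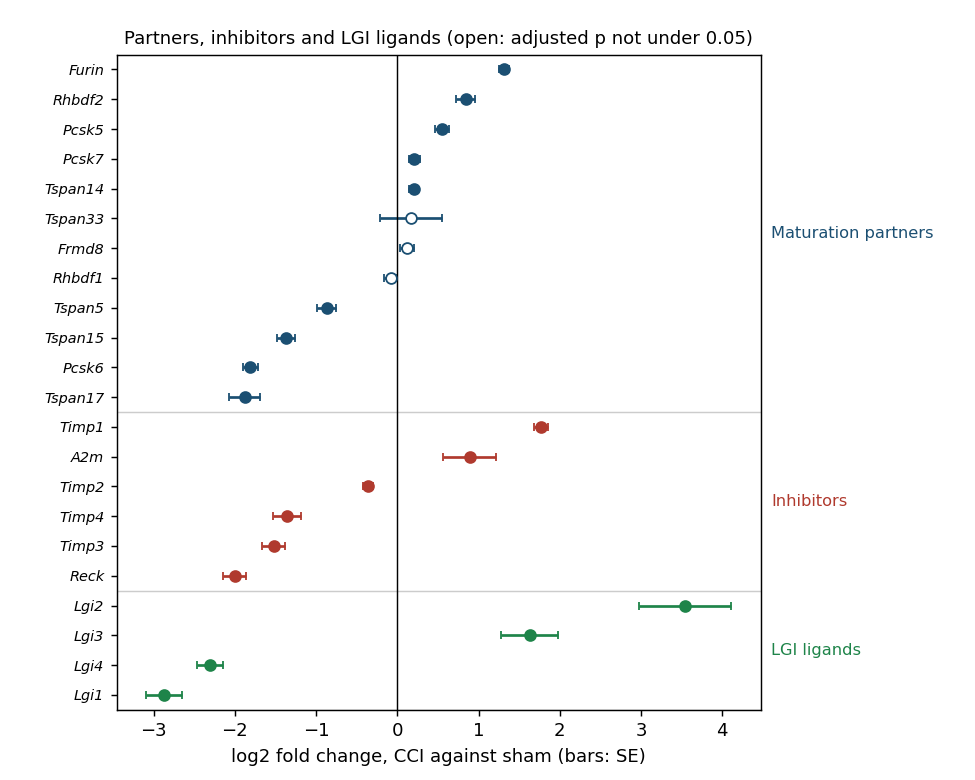
Log2 fold change (CCI against sham, bars for SE) of maturation partners, inhibitors and LGI ligands of the family; open points did not pass an adjusted p under 0.05, and Tspan10 is left out because its sham libraries held 1 count. Furin and Timp1 lie right of 0, and Pcsk6, Tspan17, Reck, Timp3, Lgi1 and Lgi4 lie at or beyond -1.52.

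Of 26 known substrates of the sheddases 23 were tested, of which 13 rose, 5 fell and 5 did not pass, with a median log2 fold change of 0.63; 56.5% were thus higher and 21.7% lower, beside 36.2% and 32.2% of all genes. The 4 with the smallest p were Tgfa, Tnfrsf1b, Cd44 and Cxcl16. Tgfa, an EGF receptor ligand cut by ADAM17, fell from 94.2 ± 6.17 to 13.0 ± 1.64 CPM (log2 fold change -2.85, edgeR adjusted p = 6.04e-09). Tnfrsf1b, a tumour necrosis factor receptor, rose from 19.5 ± 2.49 to 96.3 ± 7.78 CPM, Cd44, the hyaluronan receptor, from 100.4 ± 9.78 to 459.7 ± 48.4 CPM, and Cxcl16, a membrane-bound chemokine, from 18.2 ± 1.77 to 62.4 ± 4.62 CPM. Nrg1 read 2.52, 7.11, 7.88 and 4.65 CPM in sham and 6.96, 6.83, 7.40 and 7.87 CPM in CCI, with overlapping groups (edgeR log2 fold change 0.39, SE 0.30, adjusted p = 0.264). RNA levels do not measure how much of any substrate was cut.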

How the data were processed

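RNA of rat sciatic nerve was sequenced from polyA libraries (RNeasy extraction, SMARTER mRNA-Seq kit, per the labels' protocols). The authors deposited 1 table of counts per gene and 1 table of FPKM values, with a column for each of the 8 libraries. The submitters' processing notes name HISAT2, HTSeq, DESeq2, fastp and R 3.2.0 without saying what each did, and the build Rnor_6.0. No source used here gives the annotation, the strand setting or any filter, so genes that overlap, lie antisense or have near-identical copies (Adam4 and Adam4l1 among them) are uncertain. The deposited FPKM values equal the count divided by length and by the library's summed count, with no further scaling for library composition.

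From the deposited counts, CCI was compared with sham by edgeR's quasi-likelihood test (edgeR 4.0.16 under R 4.3.3; filterByExpr, TMM, robust fit, no covariate) over all genes, with Benjamini-Hochberg adjustment and a threshold of 0.05. The SE is the fold change divided by the square root of F and is approximate. The code was tested on simulated data. Ratios of 2 members used the deposited counts plus 0.5, without normalisation, and an exact permutation test. Alternatives were DESeq2 1.42.0, its size factors, library totals, limma 3.58.1 (voom with sample weights, and log2(FPKM + 1) or log2(FPKM + 0.1)), other filters, a replicate block and each library left out. Chi-square values between pairs of replicates, each summed over genes, ran from 27.5 to 74.5 per degree of freedom. They were far above sampling noise, so each library counts as 1. Replicate numbers did not pair the libraries.

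Members and lists were chosen with earlier results of these data known. Given with all 8 values were Adam10, Adam17, Adam8, Adam22, Adamts4, Adamts5 and, per class, the called members with the largest changes and a mean of at least 1 CPM (up to 5, or 3 in small classes); from other lists, the 4 genes with the smallest p. Adam9, Adam23, Adam11, Adamts1, Adamts18, Adamtsl1, Adamtsl5, Vcan, Vwf, Fbn1, Comp, Col1a1, Col1a2, Col3a1, Col5a1, Nrg1, Timp2, A2m and the remaining tetraspanins and iRhoms were named after their values were seen. All 51 members had a current RefSeq symbol. Sequences are from RefSeq (GRCr8); where a gene had several windows the first was used.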

Additional observations from a re-analysis of the deposited data

Results flagged for a closer look

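In each group of 4 libraries, the gap of the highest or lowest library to its neighbour was compared with the range by Dixon's criterion for the 39 tested members, which made 78 groups. It picked out 6, where chance picks out about 1 in 20. Sham 2 stood apart in 3 of them: it was the highest sham library for Adam15, at 82.4 CPM, and the lowest for Adam17, at 59.6 CPM, and for Adamts20, at 98.6 CPM. CCI 2 was the lowest CCI library for Adamts2, at 265 CPM. CCI 4 was the lowest CCI library for Adam19, at 309 CPM, and sham 3 the lowest sham library for Adamtsl5, at 24.3 CPM. Sham 2 and CCI 2 were also the libraries with the highest skeletal muscle markers, and the part of muscle in these values was not tested. In 5 of the 6 genes the groups stayed apart; Adamtsl5 overlapped.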

How the results depend on the processing

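No called member changed direction under any alternative. The sheddase calls (6 higher, 2 lower) and the ADAMTS-like calls (5 lower) stayed the same in number under all of them. The replicate block gave 31 called members, as without it, and changed no member's call; deviations of same-numbered libraries correlated at between -0.02 and 0.29, and only CCI 2 and CCI 4 matched their own number best. With library totals in place of TMM the median of all genes moved from 0.05 to 0.27 and the share of calls that were higher from 52.9% to 66.9% (66.8% in limma on FPKM). Under library totals, log2(FPKM + 1) and log2(FPKM + 0.1), 1 secreted enzyme was lower in place of 2. In the same order, the median log2 fold change was 1.28, 1.23 and 1.27 for the sheddases, 1.06, 0.7 and 1.08 for the secreted enzymes, and -0.85, -0.82 and -0.85 for the ADAMTS-like genes. The secreted median was 0.56 with at least 5 CPM in 4 libraries, which tests fewer genes, 0.99 without CCI 2 and sham 2, and between 0.77 and 1.01 on leaving out each library.

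Calls were lost for Adam22 and Adamts2 under library totals and on FPKM, for Adam22 and Adamts10 without CCI 2 and sham 2, and for Adamts13 with voom weights (adjusted p = 0.329) and on leaving out each of 5 libraries. Gained were Adam32 under library totals and on FPKM and Adam4l1 with DESeq2 (adjusted p = 0.0477). The causes were not tested. With log2(FPKM + 1), the log2 fold changes of Adamts8, Adamts18, Adamts19, Adamts13 and Adamtsl2 were 0.77, 0.48, 0.7, 0.88 and -1.01. Those of Adam8, Adam1a and Adamts20 were 2.5, -0.76 and -2.1, and those of Lgi1, Lgi2 and Lgi3 were -2.1, 1.03 and 0.81. All were nearer to 0 than in edgeR by over 1.5-fold. A pseudocount shrinks folds, most at low FPKM, and the FPKM values also lack the TMM scaling. The part of each was not tested.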

Other observations

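Adam8 held 0.402% of the summed FPKM of the membrane ADAMs in sham and 2.94% in CCI. The ADAMTS-like genes went from 18.2% to 7.21% of the summed FPKM of the whole family, while the membrane ADAMs went from 42.1% to 49.1% and the secreted enzymes from 39.7% to 43.7%, with no overlap between groups in any of the 3.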
